A study of Mus musculus with 24 samples.

Results

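Scgb3a1 encodes secretoglobin family 3A member 1, a small secreted protein. It was chosen by its symbol, as 1 of 33000 genes in the deposited table, because earlier results of these data had shown a large difference between genotypes. That difference is therefore given below as a description without a p-value, and tests were kept for measures that did not select the gene. The libraries were made by 3'Pool-seq, which primes cDNA at the polyA tail and sequences the 3' end of each mRNA, from total RNA of the frontal cortex of 3-month-old mice. The study names C57BL/6 as the strain of the WT mice. The 3 WT mice were compared with 3 GFAP-IL6 mice, homozygous for a transgene in which the astrocyte promoter of Gfap drives Il6. From each mouse 4 libraries were made, since tagmentation (cutting and tagging by a transposase) used either 2 ng or 1 ng of cDNA in both set A and set B. What distinguishes the sets is not given in the labels. The mouse was the replicate (n = 3 per genotype). By the study's methods, samples are pooled before cDNA amplification, so the 6 libraries of a set may share 1 reaction, and a p-value over mice measures the spread between mice and not between reactions.

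Secretoglobins are small secreted proteins best known from the epithelia of airways and glands, where Scgb1a1 and Scgb3a2 mark club cells. Interleukin-6 binds its receptor chain Il6ra together with the signalling chain Il6st (gp130), which activates Janus kinases and the transcription factor Stat3, and Socs3 feeds back on this signal. In the brain, astrocytes and microglia respond to interleukin-6 with secreted and surface proteins of the acute phase and of complement. Frontal cortex is not a tissue for which secretoglobins are known.

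Scgb3a1 (ENSMUSG00000064057.10) lies on the plus strand at chr11:49663610-49665118 of mm10. The annotation holds 2 transcripts of 493 and 598 nt. Both end with the same exon, at 49664968 to 49665118, in which 130 nt from the stop codon at 49664989 onward are 3' UTR, so counts from the 3' end cannot separate the transcripts. No other annotated gene overlaps the locus. None of the 50-base stretches of its transcripts occurred in a transcript of another gene (0 other genes among 141767 transcripts searched). Only exact matches were searched, so a copy that differs by single bases was not excluded. The bases before its start are shown because Stat3 binds sequences of the form TTCNNNGAA. The 250 bases upstream of the RefSeq start, chr11:49663345-49663594 on the plus strand of GRCm38.p6, are given 5′ to 3′, with the match to that form in capitals.
Scgb3a1 upstream: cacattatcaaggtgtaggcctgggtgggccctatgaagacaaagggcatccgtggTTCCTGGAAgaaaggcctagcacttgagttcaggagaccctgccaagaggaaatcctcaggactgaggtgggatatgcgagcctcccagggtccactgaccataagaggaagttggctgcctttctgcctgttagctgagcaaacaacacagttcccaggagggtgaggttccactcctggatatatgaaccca
The match lies at chr11:49663401-49663409, positions -194 to -186 from the RefSeq start. Both strands of all 32851 RefSeq promoter windows of 300 bases were searched, and 8.3% held this form, against 6.66% of the windows of genes tested here. A looser form of the NF-kB site, GGGNNNNNCC, matched at positions -228 to -219 without overlapping the first match, and 50.8% of all windows and 65.9% of those of tested genes held it. The C/EBP form TTGCNNAA, held by 10.8% of all windows and 8.35% of those of tested genes, had no match in this window. Of the 149 windows of genes called higher in GFAP-IL6, 12.1% held the Stat3 form, 52.3% the NF-kB form and 11.4% the C/EBP form. The motifs were searched after the expression values were known, and a match is a run of letters and not a bound site.

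Scgb3a1 was counted in every library. Levels are given as CPM, the reads of the gene scaled to a common library total, with TMM factors that correct the totals for composition. With 2 ng in set A, the 3 WT mice had 4.47, 4.56 and 3.89 CPM and the 3 GFAP-IL6 mice 75.1, 110.9 and 119.8 CPM. With 1 ng in set A, the WT mice had 5.79, 4.32 and 3.41 CPM and the GFAP-IL6 mice 71.3, 105.6 and 116.8 CPM. GFAP-IL6 1 was the lowest GFAP-IL6 mouse in both, and every GFAP-IL6 library stood far above every WT library. With 2 ng in set B, the WT mice had 4.65, 6.78 and 4.62 CPM and the GFAP-IL6 mice 75.3, 132.8 and 116.8 CPM. With 1 ng in set B, the WT mice had 6.79, 5.68 and 4.25 CPM and the GFAP-IL6 mice 61.4, 111.4 and 116.3 CPM. The 12 WT libraries thus spanned 3.41 to 6.79 CPM (median 4.59), and the 12 GFAP-IL6 libraries 61.4 to 132.8 CPM (median 111.2), without overlap. The counts behind these values were 6 to 43 reads per WT library and 148 to 1442 per GFAP-IL6 library, so the WT levels carry the larger counting error.

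**Figure D1:**
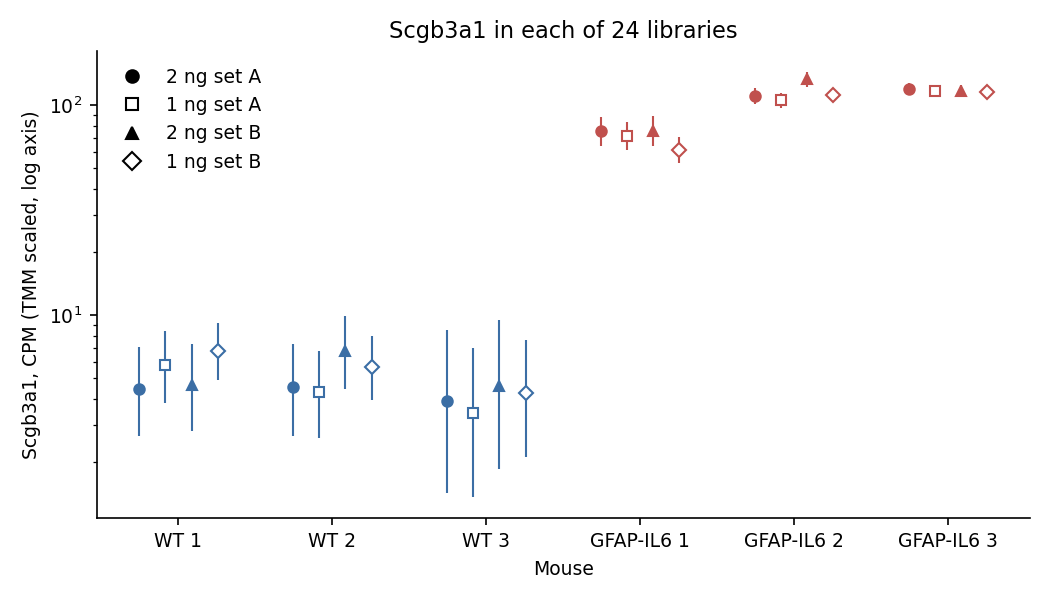
CPM of Scgb3a1 (log axis) in each of the 24 libraries, by mouse, with the shape of the point giving the library set, blue for WT and red for GFAP-IL6, and lines for the 95% counting interval. The WT libraries lie between 3.41 and 6.79 CPM and the GFAP-IL6 libraries between 61.4 and 132.8 CPM, with GFAP-IL6 1 below the other GFAP-IL6 mice.

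After the 4 libraries of a mouse were summed, WT 1, 2 and 3 had 107, 96 and 31 reads and 5.58, 5.32 and 4.04 CPM. GFAP-IL6 1, 2 and 3 had 663, 2372 and 4496 reads and 69.6, 114.3 and 116.6 CPM. The means were 4.98 ± 0.821 CPM in WT and 100.2 ± 26.5 CPM in GFAP-IL6 (SD, n = 3 mice each). The lowest GFAP-IL6 mouse was 12.5 times the highest WT mouse. For reference, the 2 genotypes were likewise separate, with GFAP-IL6 higher, in 8.41% of the 14621 genes tested. By CPM, Scgb3a1 stood above 44.69% of the 19318 genes counted in WT and above 90.59% of the 19965 genes counted in GFAP-IL6. Per kb of exon it stood at 8.33 CPM per kb in WT, above 70.86% of genes, and at 167.5 CPM per kb in GFAP-IL6, above 97.29%. Reads of the 3' end do not scale with gene length, so the second pair of ranks favours a short gene. In RNA from whole tissue, more cells that express the gene and more RNA per cell cannot be told apart.

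Fitted with edgeR over all genes, the genotype difference of the summed libraries was a log2 fold change of 4.29 (SE 0.194), or 19.6-fold with a 95% interval of 14.7 to 26.1. The same difference was 4.56 (SE 0.212), or 23.5-fold, with 2 ng in set A, and 4.33 (SE 0.220), or 20.1-fold, with 2 ng in set B. With 1 ng it was 4.38 (SE 0.216), or 20.9-fold, in set A, and 4.07 (SE 0.231), or 16.8-fold, in set B. The 4 sets hold the same 6 mice and are not independent repeats of the experiment. Their 95% intervals overlapped, from 12.1 to 23.5-fold with 1 ng in set B to 17.4 to 31.8-fold with 2 ng in set A.

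**Figure D2:**
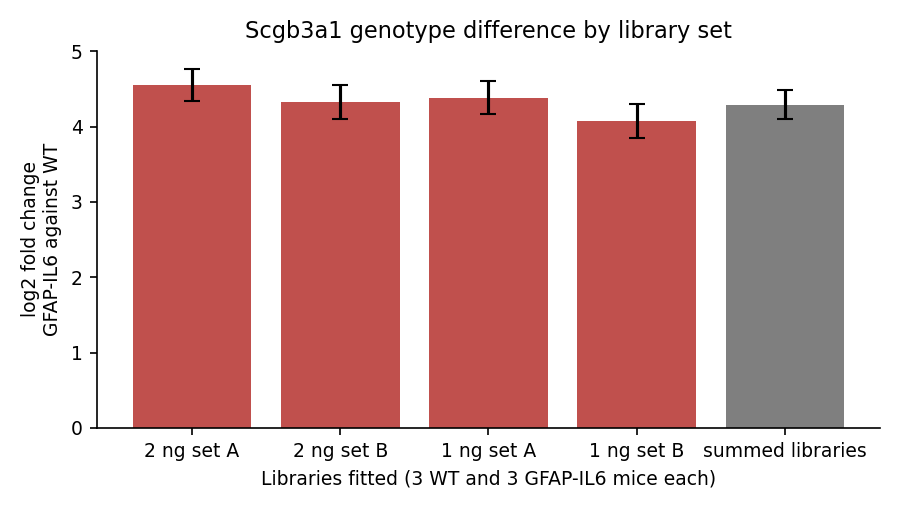
Log2 fold change of Scgb3a1, GFAP-IL6 against WT, fitted in each library set (red) and in the summed libraries (grey), with bars for the estimate and lines for ± 1 SE over 3 mice per genotype. The estimates run from 4.07 with 1 ng in set B to 4.56 with 2 ng in set A.

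By fold change in the summed libraries Scgb3a1 came 4th of the 14621 genes tested. The genes above it were Treml2, a receptor of myeloid and lymphoid cells, Hcar2, a receptor for hydroxybutyrate and niacin, and Apoc2, a secreted apolipoprotein. Treml2 had 3 reads in all WT libraries and 138 in all GFAP-IL6 libraries, Hcar2 3 and 123, and Apoc2 2 and 83, against 234 and 7531 for Scgb3a1. Scgb3a1 thus did not have the greatest fold change of every secreted protein gene tested, since Apoc2 had a log2 fold change of 4.47 (SE 0.788). It had the greatest among the 137 genes called between genotypes (a log2 fold change beyond 1 in either direction and an adjusted p under 0.05) that had at least 10 reads in each mouse, with Ccl12 next at 3.81 (SE 0.125). That filter acts on WT reads too, and it removed Treml2, Hcar2 and Apoc2 for their few WT reads. Since Scgb3a1 was chosen by this contrast, its rank is a description only. In single sets it ranked first with 2 ng in set A and was preceded by Ccl8 with 1 ng in set A, by Fcgr4 and Cst7 with 2 ng in set B, and by Pirb and Fam187a with 1 ng in set B. Over all genes 180 of 14621 (1.23%) were called between genotypes, 176 (1.2%) higher and 4 (0.0274%) lower in GFAP-IL6, and 106 were called when GFAP-IL6 3 was left out.

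The transgene's product and its promoter's own gene were read in the same mice. Il6 had 5, 3 and 0 reads in WT 1, 2 and 3 and 30, 33 and 163 reads in GFAP-IL6 1, 2 and 3. In CPM these were 0.261, 0.166 and 0 against 3.15, 1.59 and 4.23, which fits the genotype labels. Gfap, an intermediate filament of astrocytes, stood at 20.4, 23.5 and 15.9 CPM in WT and at 80.5, 102.3 and 146.4 CPM in GFAP-IL6. The order of the GFAP-IL6 mice by Scgb3a1 was that by Gfap, whereas by Il6 GFAP-IL6 2 was the lowest. That order, from mouse 1 to mouse 3, was shared by 110 of the 175 other genes called higher. The read totals of these mice (9534116, 20641341 and 37582644) have the same order, and a link to depth was not tested. Those genes were called from the same mice, and the share over all genes tested was not taken. With 3 mice, an order shared with another gene is a description only.

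Among the GFAP-IL6 mice, GFAP-IL6 1 stood below the other two. Its level was 0.603 times their mean, and GFAP-IL6 2 and 3 differed from each other by less than the libraries of GFAP-IL6 2 did. The coefficient of variation between mice was 26.4% in GFAP-IL6 and 16.5% in WT. Between the 4 libraries of 1 mouse it was 1.37% to 10.5% in GFAP-IL6 and 12.8% to 21.2% in WT. Counting error alone gives 20.5%, 21.2% and 36.9% for an average library of WT 1, 2 and 3, so the scatter between libraries was about that of counting in WT 1 and WT 2 and below it in WT 3. In GFAP-IL6 2 the scatter of 10.5% was above the 4.15% that counting gives, with the library of 2 ng in set B highest at 132.8 CPM. The position of GFAP-IL6 1 was also read in the other genes that were higher in GFAP-IL6. Of the 175 other genes called higher, GFAP-IL6 1 was the lowest GFAP-IL6 mouse in 134 (76.6%), GFAP-IL6 2 in 30 and GFAP-IL6 3 in 11. The median ratio of GFAP-IL6 1 to the mean of the other two was 0.757 over those genes, and 26 of the 175 had a lower ratio than Scgb3a1. GFAP-IL6 1 also had the fewest reads of the GFAP-IL6 mice, and the share over all genes tested was not taken.

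Whether the reading of Scgb3a1 depended on the amount of cDNA was tested within each set, since this contrast had no part in choosing the gene. In set A the difference of 2 ng minus 1 ng in log2 CPM was -0.37, 0.07 and 0.19 in WT 1, 2 and 3 and 0.08, 0.07 and 0.04 in GFAP-IL6 1, 2 and 3. In set B it was -0.54, 0.25 and 0.12 in the WT mice and 0.29, 0.25 and 0.01 in the GFAP-IL6 mice. The 2 ng library gave the higher value in 5 of 6 mice in both sets, and WT 1 was the exception in both. The fitted difference was 0.03 (SE 0.135, 95% interval -0.25 to 0.30, edgeR adjusted p = 0.926) in set A and 0.14 (SE 0.158, -0.19 to 0.46, adjusted p = 0.731) in set B. In the same fits an adjusted p of 0.05 was passed by 17.1% of 12869 genes (set A) and 6.03% of 12778 genes (set B). With the mouse as a block, which pairs the libraries of a mouse, the difference was 0.03 (SE 0.0736, adjusted p = 0.777) in set A, where 30.4% of genes passed. In set B the blocked difference was 0.14 (SE 0.0687, 95% interval 0.002 to 0.28, unadjusted p = 0.0464, adjusted p = 0.156), and 20.3% of genes passed. The exact two-sided sign-flip permutation test over 6 mice gave p = 0.875 in set A and p = 0.594 in set B (0.875 and 0.792 when adjusted over the 4 technical contrasts). No difference was detected, and the unblocked interval in set B reached 0.46 on the log2 scale.

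Sets A and B were compared in the same way. With 2 ng, Scgb3a1 in set A minus set B was -0.06, -0.56 and -0.24 on the log2 scale in the WT mice and -0.003, -0.26 and 0.04 in the GFAP-IL6 mice. With 1 ng it was -0.23, -0.39 and -0.31 in the WT mice and 0.22, -0.08 and 0.01 in the GFAP-IL6 mice. All 3 WT mice were lower in set A at both amounts, whereas the GFAP-IL6 mice went both ways. The fitted difference was -0.11 (SE 0.136, edgeR adjusted p = 0.613) with 2 ng and -0.04 (SE 0.153, adjusted p = 0.982) with 1 ng. Of all genes, 19.9% of 12711 passed with 2 ng and 0.705% of 13048 with 1 ng. With the mouse as a block the adjusted p was 0.395 and 0.961, and 32.4% and 5.33% of genes passed. The exact sign-flip permutation p was 0.0938 with 2 ng and 0.188 with 1 ng, and 0.375 for each after adjustment.

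**Figure D3:**
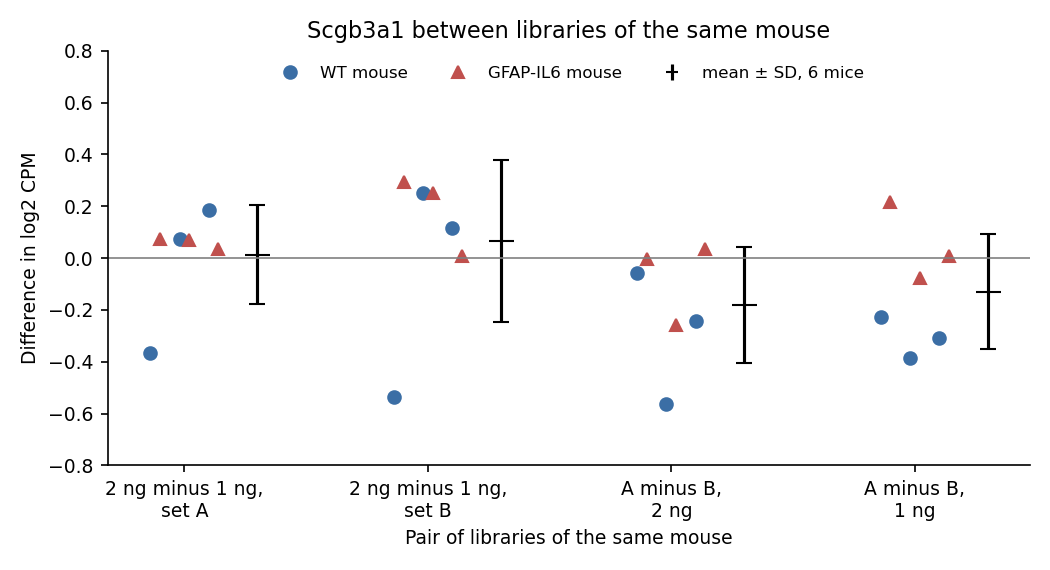
Difference in log2 CPM of Scgb3a1 between libraries of the same mouse, for 2 ng minus 1 ng in sets A and B and for set A minus set B at 2 ng and 1 ng, with 1 point per mouse (blue circles for WT, red triangles for GFAP-IL6) and the mean ± SD of the 6 mice in black. WT 1 is the lowest point of both amount contrasts, at -0.37 and -0.54, and all 4 means lie within 1 SD of 0.

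Whether the genotype difference itself changed with the amount of cDNA was tested as an interaction. It was 0.17 (SE 0.404, 95% interval -0.66 to 0.998) on the log2 scale in set A and 0.26 (SE 0.432, -0.63 to 1.15) in set B, with edgeR adjusted p of 0.9999 in both. Without WT 1 the estimates turned to -0.06 in both sets. The exact permutation of genotype over the 6 mice gave p = 0.9 and p = 0.5, where 0.1 is the smallest p that 3 against 3 allows. No gene (0.0%) passed in either set, by edgeR or by DESeq2, while the unadjusted edgeR p was under 0.05 for 155 genes (set A) and 105 genes (set B). With the mouse as a block the interaction was 0.18 (SE 0.314, adjusted p = 0.999) in set A and 0.25 (SE 0.273, adjusted p = 0.999) in set B.

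Scgb3a1 is a short gene, and the amount contrast was also read by gene length, a split made after the values were known. Of the 199 tested genes no longer than 598 nt, 43.2% passed between 2 ng and 1 ng in set A, 16 higher and 70 lower with 2 ng, and their median difference was -0.24. In set B 23.7% of 190 such genes passed, 11 higher and 34 lower, with a median of -0.06. Among longer genes 16.6% passed in set A and 5.77% in set B. No test was made of the difference between short and long genes. Scgb3a1 had a positive estimate in both sets, above 53.5% of all genes tested in set A and above 76.4% in set B.

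Of the 35 secretoglobin genes in the table, Scgb3a1 was the only one with more than 6 reads in the 24 libraries together. It had 7765 of 112945479 reads, and the 34 others had 7 reads in all. Scgb1c1 had 6, of which 5 were in GFAP-IL6 libraries, and Scgb3a2, the club cell gene of the same subfamily, had 1, in WT. The other 32, Scgb1a1 among them, had no read. Reads that align to several places were not counted, and 24 of these 32 genes share at least 1 stretch of 50 bases with another annotated gene, so their 0 does not bound their expression. For the other 8, which include Scgb1a1, it allows at most 0.0266 CPM each over all libraries. No secretoglobin but Scgb3a1 had enough reads to be tested, so no genotype difference in them could be detected at this depth. Of the 35 genes 31 lie on chromosome 7, in the table's own coordinates, and Scgb3a1 on chromosome 11.

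The genes around Scgb3a1 were read from the same fit, and all 36 within 500 kb were taken. Of these, 26 were in the table, 12 had any read and 9 had enough to be tested. None of the 9 was called between genotypes by edgeR or by DESeq2 (1.23% of all genes were), and 2 had an unadjusted edgeR p under 0.05. Flt4, the receptor for vascular endothelial growth factors C and D, ends 10.9 kb upstream and had 0.358 ± 0.299 CPM in WT and 0.776 ± 0.369 CPM in GFAP-IL6 (SD, n = 3). Its log2 fold change was 1.42 (SE 0.654, adjusted p = 0.556), from 70 reads in all. Cnot6, a deadenylase of the CCR4-NOT complex, lies 6.4 kb downstream on the opposite strand and had 34.2 ± 2.49 and 34.6 ± 2.12 CPM. Its log2 fold change was 0.02 (SE 0.103, adjusted p = 0.988). The lowest value was that of Rasgef1c, an exchange factor domain gene, at -0.38 (SE 0.127, adjusted p = 0.251). The tested neighbours had a median of 0.02, against 4.29 for the gene between them. Upstream lie 15 olfactory receptor genes, of which the 11 in the table had 1 read in all libraries together.

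**Figure D4:**
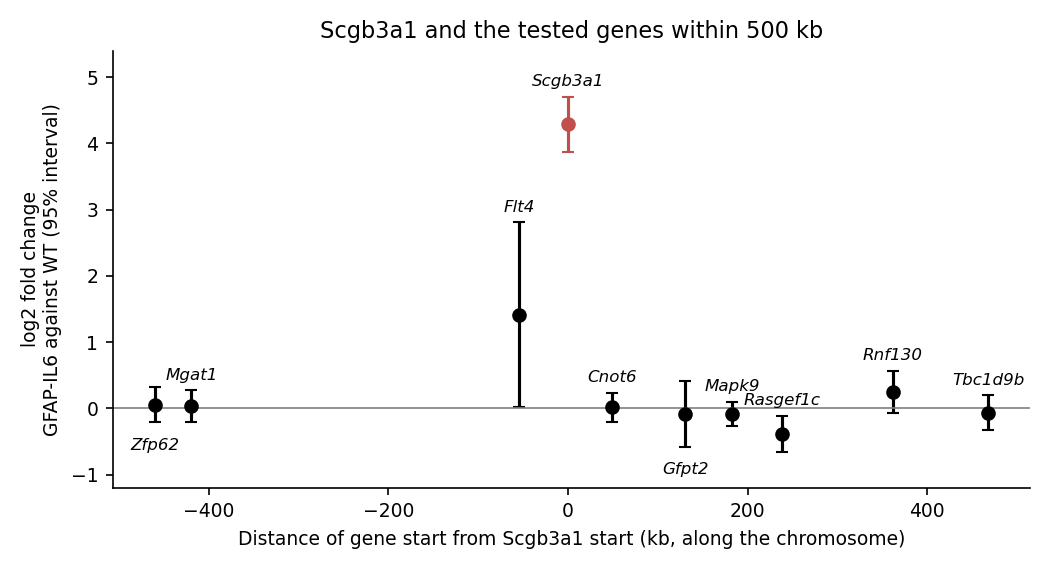
Log2 fold change, GFAP-IL6 against WT in the summed libraries, of Scgb3a1 (red) and the 9 tested genes within 500 kb (black), with 95% intervals over 3 mice per genotype. The horizontal axis gives the distance in kb of each gene's start, by its strand, from that of Scgb3a1. Cnot6, on the minus strand, is thus drawn at 49.1 kb. The neighbours lie between -0.38 and 1.42, and Scgb3a1 lies at 4.29.

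The genes whose profile over the 6 mice came closest to that of Scgb3a1 were taken by the root mean square difference of log2 CPM, each centred on its WT mean, over 14620 other genes. The closest were Ccl8 at 0.425, Ccl12 at 0.468, C4b at 0.523, Fam187a at 0.581 and Pirb at 0.597, against a median of 3.06 over all genes. Ccl8 and Ccl12 are chemokines that attract monocytes, C4b is complement component 4, Pirb is an inhibitory receptor of myeloid cells, and Fam187a has no role that is well known. Ccl12 stood at 6.46, 5.98 and 6.78 CPM in the WT mice and 86.1, 80.8 and 100.8 CPM in the GFAP-IL6 mice, where GFAP-IL6 2 and not 1 was lowest. C4b stood at 4.80, 4.82 and 4.18 CPM and 38.6, 57.5 and 76.1 CPM, in the mouse order of Scgb3a1. C4b and Pirb have close paralogs, with which reads may be confused. Such a measure favours any gene with a large difference between genotypes, and it rests on 6 mice.

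**Figure D5:**
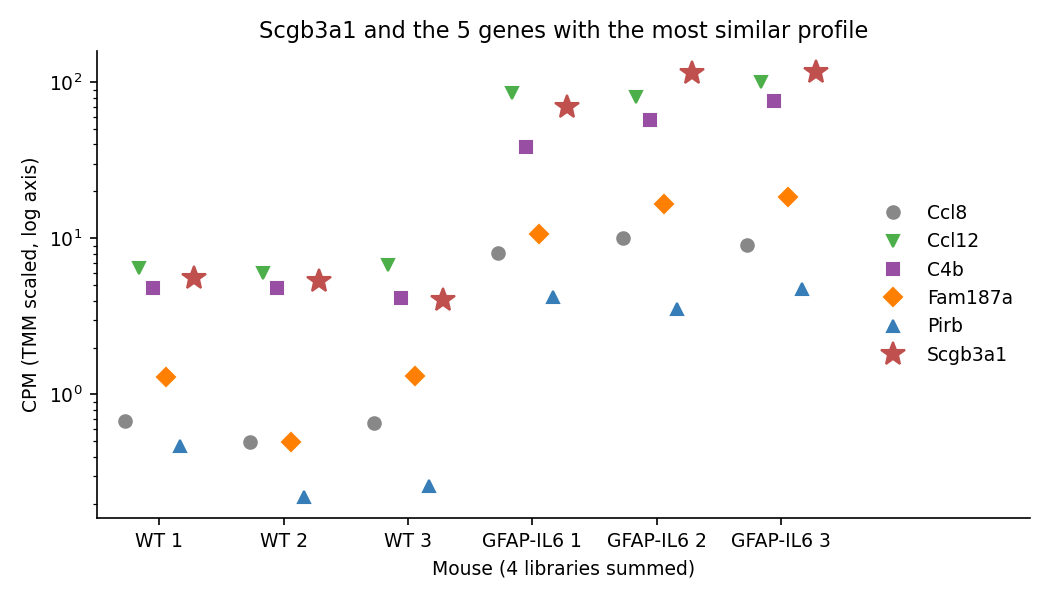
CPM (log axis) of Scgb3a1 (red stars) and of the 5 genes with the smallest root mean square difference from it, in each mouse with its 4 libraries summed. All 6 genes are higher in each GFAP-IL6 mouse than in any WT mouse, and GFAP-IL6 1 is the lowest GFAP-IL6 mouse for Scgb3a1, C4b, Fam187a and Ccl8. Levels of different genes are not scaled to gene length.

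Genes of the interleukin-6 and Stat3 pathway were described as a list of 30, of which 27 were tested. By edgeR, 8 were called higher in GFAP-IL6 and none lower, where 1.2% of all genes were called higher and 0.0274% lower, with a median log2 fold change of 0.77 over the 27, against -0.007 over all genes tested. The ligand Il6, 1 of the 8, rose by 4.06 (adjusted p = 0.000783). It is the product of the transgene, so its call follows from the genotype and is no finding about the pathway. Among receptor chains Osmr, the oncostatin M receptor, was called at 2.08 (adjusted p = 0.000813), whereas Il6ra had 0.62 (adjusted p = 0.253) and Il6st 0.32 (adjusted p = 0.452). None of the kinases Jak1, Jak2 and Tyk2 was called, and their values lay between -0.10 and -0.0009. The transcription factor Stat3 had 0.49 (adjusted p = 0.0686). The feedback inhibitor Socs3 was called at 1.62 (adjusted p = 0.033). Of the targets that encode secreted or surface proteins, Lcn2, which binds bacterial siderophores, was called at 3.67 and Saa3, an acute phase protein, at 3.21. Lrg1, a leucine-rich glycoprotein, was called at 2.61 and Icam1 at 2.01. Timp1, Serpina3n, A2m and Cp, at 0.77 to 0.98, were not called, and Fgg, Hp and Steap4 had too few reads to be tested. Of the target transcription and growth genes only Cebpd was called, at 1.25. Pim1, Bcl3, Junb, Fos, Myc, Cebpb and Hif1a were not called, with values from -0.24 (Cebpb) to 1.69 (Bcl3). Il6, Lcn2 and Saa3 were the 3 called members with the greatest change, and Scgb3a1 was not on this list. The list was drawn up with the direction of several members known, so its count is not independent evidence.

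Markers of other cell types were read beside Scgb3a1. Since 1.23% of all genes were called, a list of this size with none called does not stand apart from genes in general. Of 12 airway secretory and alveolar markers, 6 had no read in any library (Scgb1a1, Sftpa1, Sftpb, Sftpd, Muc5b and Muc5ac). The summed level of the 12 was 3.39 to 5.26 CPM in WT and 3.04 to 4.43 CPM in GFAP-IL6, and neither of the 2 tested genes was called. The 10 choroid plexus markers summed to 111.7 to 4079.7 CPM in WT mice and to 84.7 to 756.6 CPM in GFAP-IL6 mice, with 0 of 7 tested genes called, and the 6 ciliated and ependymal markers to 9.49 to 29.8 CPM and 18.2 to 21.0 CPM, with 0 of 5 called. The 7 meningeal fibroblast markers summed to 46.8 to 81.7 CPM and 53.9 to 81.9 CPM, and 0 of 7 was called. None of these sums was higher in every GFAP-IL6 mouse than in every WT mouse. Among single genes tested 8.41% were, so the lists do not stand apart by this measure either. Scgb3a1 was among them, but it was chosen by this contrast. Most of the choroid plexus sum was Ttr, at 1423 ± 2244 CPM in WT and 413 ± 333 CPM in GFAP-IL6 (SD, n = 3). Most of the airway sum was Sftpc, at 3.70 and 3.21 CPM.

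The microglia markers, taken as a sum, were higher in every GFAP-IL6 mouse than in every WT mouse. Their sum was 524.8 to 582.2 CPM in WT and 952.7 to 1258 CPM in GFAP-IL6, and 5 of 10 were called higher (1.2% of all genes were), led by the integrin Itgam, with 6.03 ± 0.385 CPM in WT and 18.1 ± 4.35 CPM in GFAP-IL6 (SD, n = 3), and by the complement genes C1qb and C1qa with log2 fold changes of 1.46 and 1.39. Of 10 astrocyte markers only Gfap was called, at 2.44 (SE 0.185, adjusted p = 1.59e-06), and their sum was 3424 to 3493 CPM in WT and 3810 to 3959 CPM in GFAP-IL6. The endothelial markers summed to 113.8 to 121.6 CPM and 133.5 to 222.1 CPM, with 0 of 5 called and a median of 0.70. Of these, Flt1 (0.70, adjusted p = 0.00637) and Ly6c1 (0.82, adjusted p = 0.0142) missed only the fold threshold. Cldn5, Pecam1 and Slco1a4 had adjusted p of 0.113 or more. The astrocyte and endothelial sums were thus also higher in every GFAP-IL6 mouse, as were 8.41% of single genes tested. The 6 neutrophil markers reached 0.522 to 3.77 CPM and 1.99 to 5.97 CPM, with 0 of 2 called. The 7 neuron markers stood at 5707 to 6384 CPM in WT and 5347 to 6056 CPM in GFAP-IL6. The 5 oligodendrocyte markers stood at 5289 to 8100 and 5204 to 7775 CPM. None of these was called, and they bear out brain tissue but not the region within it. Which cells held the Scgb3a1 RNA was not tested. Nor was it tested what part the microglia, astrocyte and endothelial markers have in its level.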

How the data were processed

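The 24 libraries (3'Pool-seq of frontal cortex) of 3 WT and 3 GFAP-IL6 mice were analysed. By the study's methods, the authors trimmed polyA, used STAR 2.4 for alignment to mm10, and obtained gene counts of uniquely placed reads with featureCounts and GENCODE vM6. The submitters' processing notes name a human build for these mouse samples. The authors deposited raw read counts per gene and library for 33000 genes, without normalization. Totals ranged from 1524165 to 12256374 reads per library (median 4169387), and from 7852743 to 37582644 per mouse. Intervals on counts and the floor of 3 counts cover counting error only, since PCR reads without molecular identifiers are not independent molecules.

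Groups came from the labels. Counts were fitted with edgeR 4.0.16 in R 4.3.3 (TMM, filterByExpr, quasi-likelihood test, Benjamini-Hochberg over all genes), with the 4 libraries of a mouse summed or within a set. Genes were called between genotypes at adjusted p under 0.05 and absolute log2 fold change above 1, and between amounts or sets at adjusted p under 0.05. The p-values measure the spread between these samples. Log2 CPM used a prior count of 0.5. The 4 technical contrasts were also tested by exact sign-flip permutation over 64 flips, two-sided. The libraries of a mouse share its RNA, so the mouse block pairs them. Same-numbered WT and GFAP-IL6 mice did not deviate together (correlations -0.0551, -0.0363 and -0.0737) and were not paired. Positions came from GENCODE vM21, which holds 98.8% of the genes, and promoters from RefSeq (GRCm38.p6), where the 1 member matched. Simulated data, with independent libraries, were used to check only the edgeR genotype fit of summed libraries and the unblocked amount fit in set A. The mouse block, interaction, set and permutation tests were not checked in this way. Python 3.11.15 with scipy 1.17.1 was used for the other steps.

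Scgb3a1 and the gene lists were chosen with earlier results of these data known. The genes named were Scgb3a1, Il6, Gfap, secretoglobins with a read, the adjacent genes and those called within 500 kb, the 3 called members with the greatest change per list, and the 5 most similar genes. Others (the genes above Scgb3a1 by fold, Rasgef1c and further pathway members) were named after their values were seen. Alternatives were DESeq2 1.42.0, its size factors, library totals, other filters, thinning to 1524165 reads, the block and leaving out each mouse.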

Additional observations from a re-analysis of the deposited data

Results flagged for a closer look

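Of 10 groups of Scgb3a1 values checked for a sample that stands apart, 3 held one. In the difference of 2 ng minus 1 ng, WT 1 was the lowest of 6 mice in set A at -0.37, and its gap to the next mouse was 0.728 of the whole range. In set B WT 1 was again the lowest, at -0.54, with a gap of 0.654 of the range. These rest on 18 reads against 27 in set A and 19 against 43 in set B. Among the 4 libraries of GFAP-IL6 3, the library of 2 ng in set A stood apart at 119.8 CPM with a gap of 0.838 of the range, although all 4 lay between 116.3 and 119.8 CPM. Chance alone marks about 5% of such groups.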

How the results depend on the processing

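The genotype difference of Scgb3a1 stayed within the SD between mice (0.346 on the log2 scale) under every alternative run, at 4.17 to 4.48 in the summed libraries when 1 mouse was left out and 4.23 to 4.32 otherwise. After thinning, the amount difference in set A turned from 0.03 to -0.0176 and the set difference with 1 ng from -0.04 to 0.0142. Both lay inside their SE, and the cause was not tested. When 1 mouse was left out, the genotype by amount interaction ranged from -0.0582 to 0.273 in set A and from -0.0649 to 0.517 in set B, and it was negative without WT 1 alone. Adjusted p over all alternatives ran from 0.771 to 0.988 (set A) and from 0.156 to 0.926 (set B) for the amount, from 0.395 to 0.895 (2 ng) and from 0.929 to 0.999 (1 ng) for the set, so no call on Scgb3a1 changed. Genes called between genotypes numbered 180, and 106 to 201 when 1 mouse was left out (106 without GFAP-IL6 3). They numbered 245 without a filter, 138 with at least 10 counts in every library, 186 by DESeq2, 192 with library totals and 149 with a block of same-numbered mice, a number the WT and GFAP-IL6 mice merely share. With at least 10 counts the interleukin-6 list had 5 called members and not 8, as 20 and not 27 were tested. That filter gave no value for Scgb3a1 in any fit that held a WT 3 library with under 10 reads, which left the summed libraries and 1 ng in set B. Genes passing between amounts in set B numbered 771, 2592 with the mouse block, 470 after thinning and 482 to 786 when 1 mouse was left out (482 without WT 2 and 507 without GFAP-IL6 3). Those between sets with 1 ng numbered 92, 695 with the block, 162 by DESeq2 and 44 to 103 when 1 mouse was left out (44 without GFAP-IL6 2, 46 without WT 2, 48 without GFAP-IL6 3 and 60 without WT 1). In set A with 2 ng against 1 ng 2195 became 3906 with the block, and with 2 ng between sets 2535 became 4118. WT libraries had 6 to 43 Scgb3a1 reads, which limits every contrast within WT.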
